A study of Mus musculus with 6 samples.

Results

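The genes that encode the proteins of the cytosolic ribosome were followed in sorted cells of the mouse heart. They were chosen by symbol alone, as rows named Rpl or Rps plus a number, with at most a letter and a further digit, and rows named Rplp0 to Rplp2. The rule found 78 of the 26458 symbols, and the rule itself used no measured value. Of the 78, 77 had enough counts to be tested, and Rpl3l was removed by the low-count filter. No row was found under the names Rplp0 and Rpl12, which are not analysed here.

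The cells were Thy1+HE- cells of C57BL/6 hearts, sorted at day 7 after surgery. The control animals had a sham operation and the others transaortic constriction (TAC), and no genetic change is named for either group. TAC ties the aorta so that the left ventricle pumps against a raised pressure, and Thy1 is a surface protein found on many cardiac fibroblasts. There were 3 libraries per group, and the labels give neither the meaning of HE nor whether a library stands for 1 animal or several, so p-values measure the spread between libraries, which may be technical. The study concerned the proliferation and activation of fibroblasts under pressure overload.

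Each ribosome has a small subunit, which decodes the messenger RNA, and a large subunit, which joins the amino acids and through whose tunnel the new protein leaves. The ribosomal proteins are needed in equal numbers, their genes are scattered over the genome, and their messenger RNAs are short and abundant in nearly every cell. Most of these messenger RNAs begin with a run of pyrimidines (C and T) directly at the cap, the terminal oligopyrimidine or TOP motif, through which growth signals that pass through the kinase mTOR set how well they are translated.

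Start sites are shown because the TOP motif is the sequence feature the group is known for. Of the 78 genes, 57 had an entry in the RefSeq promoter table of GRCm38.p6, among them 8 of the 9 genes that passed the test below; Rpl29 had none. Each line gives 15 bases before and 15 bases from the annotated start, 5′ to 3′ on the gene's strand, with the longest run of at least 5 pyrimidines in capitals.
Rpl15 (chr14:18270972-18271001, minus strand): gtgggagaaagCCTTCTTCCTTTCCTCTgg
Rpl39 (chrX:37085208-37085237, minus strand): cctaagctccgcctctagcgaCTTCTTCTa
Rps9 (chr7:3704026-3704055, plus strand): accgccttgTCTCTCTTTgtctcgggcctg
Rpl41 (chr10:128549154-128549183, minus strand): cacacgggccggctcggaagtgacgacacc
Rps27 (chr3:90213634-90213663, minus strand): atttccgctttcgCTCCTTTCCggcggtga
Rps27l (chr9:66946071-66946100, plus strand): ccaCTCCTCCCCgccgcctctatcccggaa
In the Rpl15, Rps9 and Rps27 windows the run spans the annotated start, in Rpl39 it begins after it, in Rps27l it ends before it, and the Rpl41 window holds none. The Rps9 start shown lies inside the gene span given below, which begins at 3703954. Rps27l has more than 1 annotated start, of which the table's leading entry is shown. The windows of the other called genes with an entry are not printed. Their longest run was 9 bases in Rpl13, 5 in Rpl27 and Rps7, and 4 in Rpl37a.

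A gene was counted where any of its annotated starts held the feature. Over the 57 genes, a run of at least 8 pyrimidines within 30 bases on either side of the start was present in 34 (59.6%), beside 25.8% of all 27025 genes in the table. A start that itself reads C followed by 4 further pyrimidines was present in 13 (22.8%), beside 3.01% of all genes. The letters CCGGAAG, the core bound by ETS family and GABP factors, lay on either strand in the 300 bases from 250 before to 50 after the start in 23 (40.4%), beside 9.93%, and AAGATGG, the core of the YY1 motif, in 10 (17.5%), beside 7.28%. The letters TATAAA on the gene's strand within 50 bases before the start were in 1 gene (1.75%), beside 3.15%. No 2 of these searches share a full motif, although the start rule and the pyrimidine run can cover the same bases. Among the genes that passed the test below, 5 of 8 held the pyrimidine run, beside 29 of the 49 that did not pass. The start rule was met by 1 of these 8, beside 12 of the 49.

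Levels of different genes were compared only as RPKM. It divides the count by gene length and by a sum close to the library's counts on gene rows. The 77 tested genes had a median of 166 RPKM over the 6 libraries, with quartiles of 111 and 255, while the median of all tested genes was 9.58. The middle of the group was therefore narrow, a ratio of 2.29 between quartiles, and its ends were wide, a ratio of 204 between the highest and the lowest gene. The order was nearly the same in both groups: across the 77 genes, sham and TAC log2 RPKM correlated with a Pearson r of 0.991 and a Spearman rho of 0.990, from libraries that share the same gene lengths and counting.

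**Figure D1:**
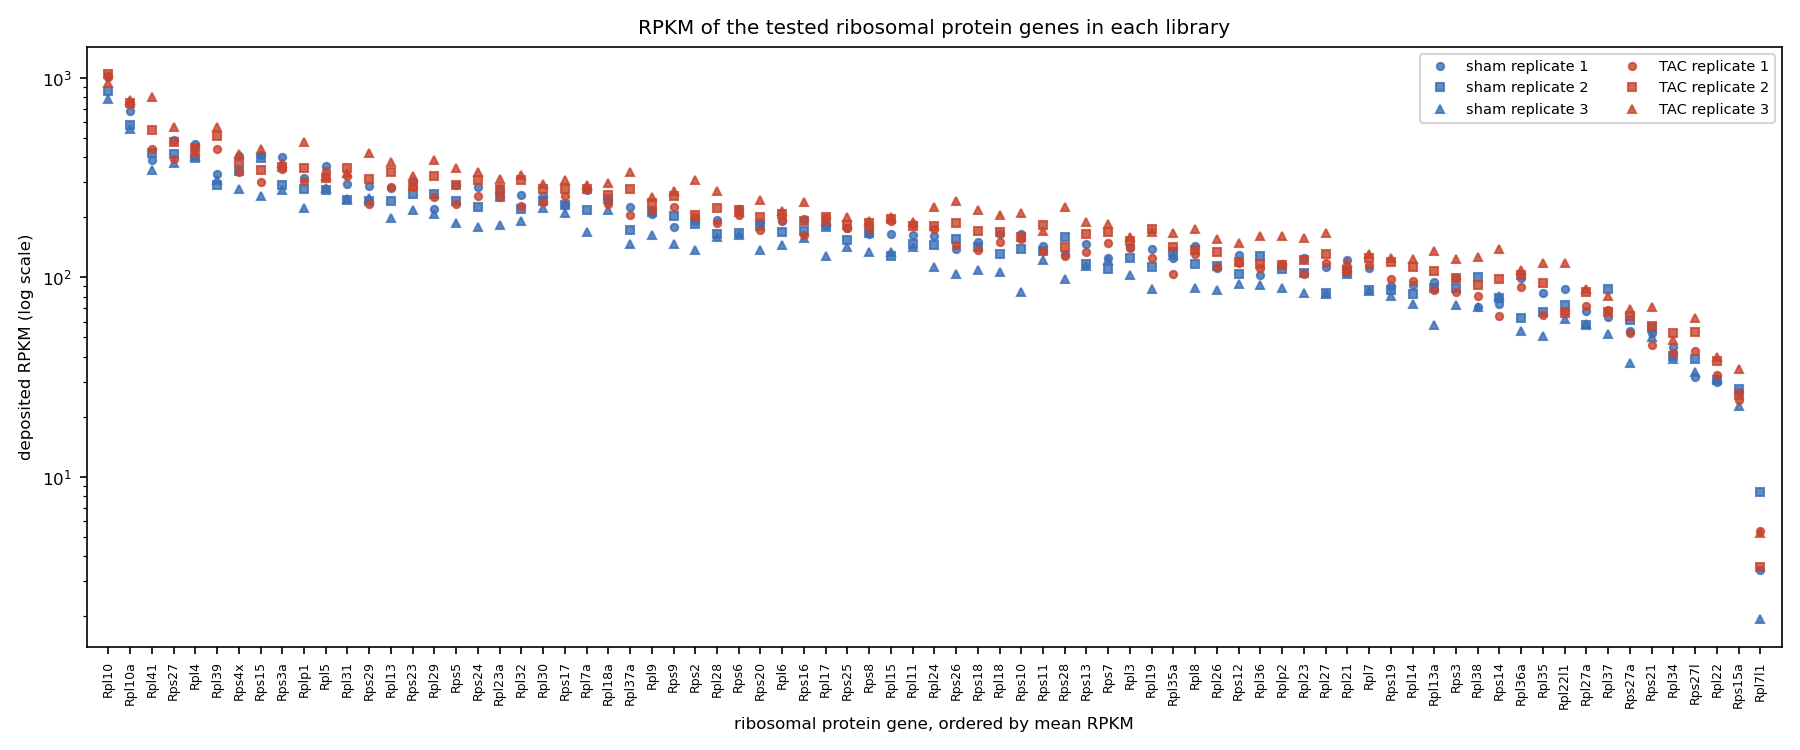
RPKM (log axis) of the 77 tested ribosomal protein genes in each of the 6 libraries, ordered by their mean. Rpl10 stands highest, at a mean of 946, and Rpl7l1 lowest, at 4.63, and the red TAC triangles (replicate 3) lie at the top and the blue sham triangles (replicate 3) at the bottom for most genes.

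The highest gene was Rpl10, whose protein joins the large subunit late in its assembly. Rpl10 had 1015, 857 and 786 RPKM in sham replicates 1 to 3 and 1024, 1044 and 948 in TAC, so the groups overlapped. Next stood Rpl10a, part of the mobile L1 stalk, with 604 ± 67.2 in sham and 756 ± 16.1 in TAC (SD, n = 3 each). Rpl41, the shortest ribosomal protein, had a mean of 491 RPKM over all libraries, Rps27, a zinc finger protein of the small subunit, 452, Rpl4, which lines the exit tunnel, 432, and Rpl39, which also lines that tunnel, 408. Neighbours among these last 4 did not differ beyond their spread: Rpl41 ranged from 346 to 804 RPKM over the libraries and Rps27 from 373 to 566. These 6 genes held 20.9% of all counts on ribosomal protein genes.

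At the low end stood Rpl7l1, a nucleolar relative of Rpl7, at 4.56 ± 3.37 RPKM in sham and 4.69 ± 1.03 in TAC, from only 10 to 47 counts per library. Rps15a followed at a mean of 27.0 RPKM and Rpl22 at 33.7. The deposited length of Rps15a was 5136 bases, the longest of the group, so its low RPKM came from 233 to 587 counts per library spread over a long row. Rpl3l, the striated muscle counterpart of Rpl3, had 1 count in sham replicate 3 and 0 in the other 5 libraries, whereas Rpl3 had 124 ± 20.0 RPKM in sham and 150 ± 10.2 in TAC. A count of 0 allows up to 3 counts, which is 0.693 to 1.54 CPM (counts scaled to a common sum by TMM library sizes, as from here on) and covers counting error only.

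After TAC, all 77 tested genes had a higher fitted level than after the sham operation, and 9 of them rose beyond the threshold: Rpl13, Rpl15, Rpl27, Rpl29, Rpl37a, Rpl39 and Rpl41 of the large subunit, and Rps7 and Rps9 of the small one. The rises were small. The median log2 fold change of the 77 was 0.31, which is 1.24-fold, beside 0.01 over all 12612 tested genes, and 52 of the 77 lay between 0.2 and 0.5. The smallest was 0.02 for Rpl21, which sits in the large subunit, and the largest 0.71 for Rpl39, with quartiles of 0.21 and 0.43. A typical gene's standard error was 0.16. In bulk RNA, more cells with a high content of these transcripts and more transcripts per cell cannot be told apart.

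The test was edgeR's quasi-likelihood test over all genes, with Benjamini-Hochberg adjustment. It called 9 of 77 (11.7%) higher, beside 8.28% of all tested genes, and 0 lower, beside 10.4% of all genes. At an unadjusted p under 0.05 there were 34 of 77 higher and 0 lower, beside 32.9% of all genes in either direction; DESeq2 called 8 higher and limma voom 9, and both 0 lower. A positive fold change was found for 77 of 77, beside 50.8% of all genes, and every TAC library lay above every sham library for 25 of 77, beside 17.7%. The remaining 52 overlapped. The share called was thus near the background, and what set the group beside the rest was a common small positive shift, described together with gene length below. Scaled to matched reads in place of gene counts, an alternative added after seeing the data, the median was 0.72 beside 0.44 for all genes, and 68 of 77 were called, beside 29.5% of all genes called higher.

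**Figure D2:**
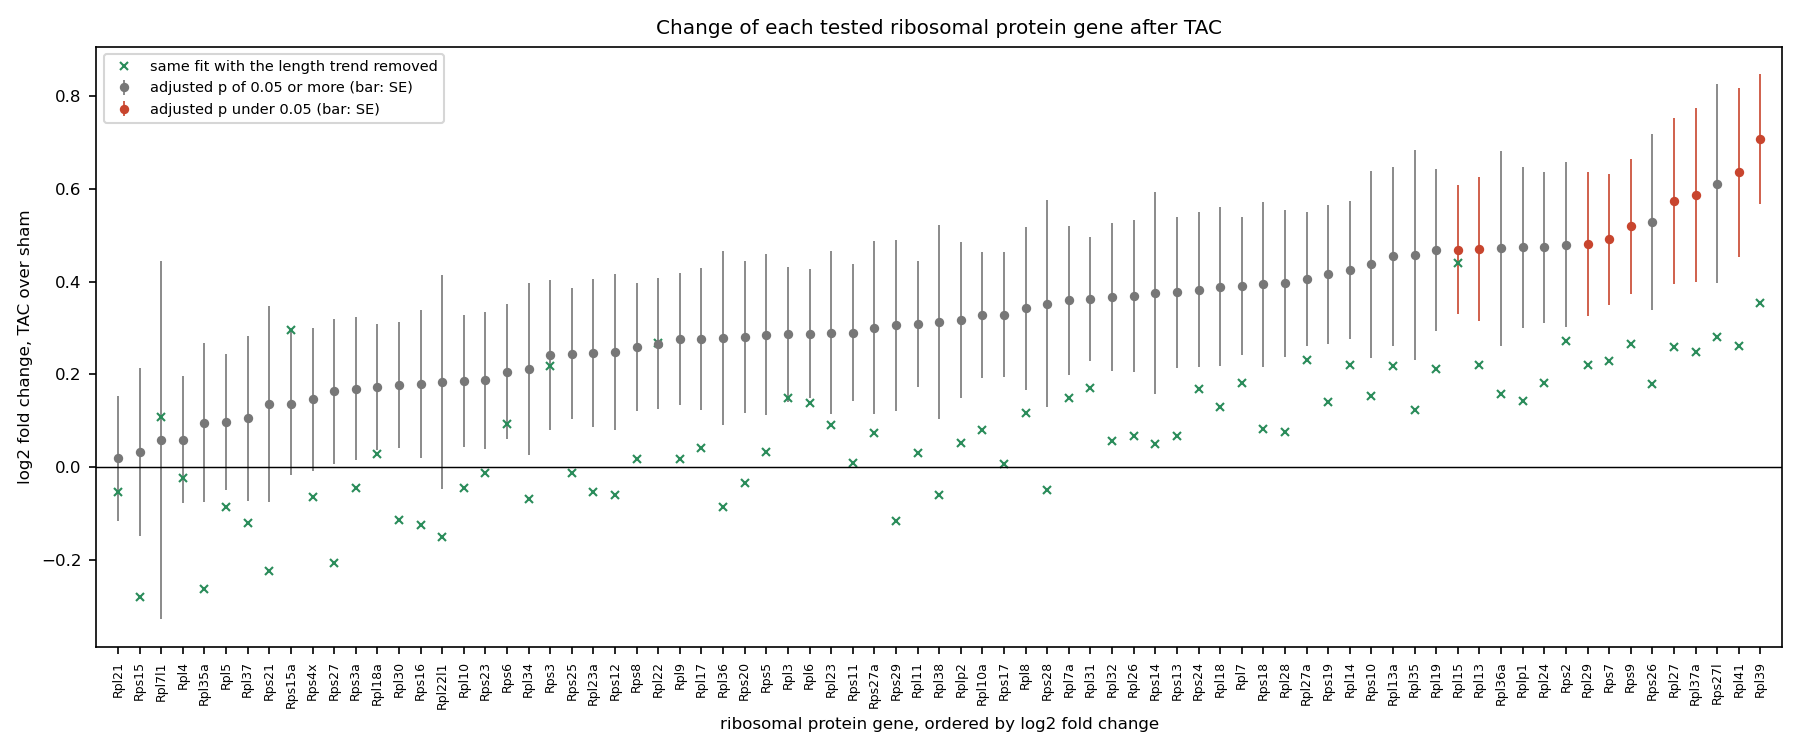
Log2 fold change of TAC over sham for each of the 77 tested ribosomal protein genes in order, with bars of 1 standard error from edgeR, red where the adjusted p was under 0.05. All points lie above 0, from 0.02 for Rpl21 to 0.71 for Rpl39; the green crosses give the same fit after the trend with gene length was removed, and 53 of them lie above 0.

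Rpl39 rose most and with the smallest error relative to its size. Rpl39 (chromosome X, 37082518 to 37085222, GRCm38) had 132, 110 and 120 CPM in sham and 177, 193 and 221 in TAC. Every TAC library exceeded every sham library. The log2 fold change was 0.71 ± 0.14 (SE), with an edgeR adjusted p of 0.00215. It passed in every fit that left out 1 library, with adjusted p from 0.00178 to 0.0248.

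Rpl41 (chromosome 10, 128548110 to 128549168), whose very short product lies at the face between the subunits, had 153, 158 and 132 CPM in sham and 175, 206 and 310 in TAC. TAC replicate 3 stood well above the other libraries, and without it the log2 fold change of Rpl41 was 0.37, against 0.64 ± 0.18 (edgeR adjusted p = 0.0220) with it. Rpl37a (chromosome 1, 72711260 to 72713813), a zinc finger protein, had 97.3, 71.9 and 62.0 CPM in sham and 90.4, 115 and 143 in TAC. It is the only called gene whose groups overlapped, sham replicate 1 lying above TAC replicate 1. Its change was 0.59 ± 0.19 (edgeR adjusted p = 0.0381).

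Rpl27 (chromosome 11, 101442245 to 101445596) is a large subunit protein mutated in some families with Diamond-Blackfan anaemia. It had 57.1, 40.6 and 40.3 CPM in sham and 60.5, 63.1 and 82.3 in TAC, a change of 0.57 ± 0.18 (edgeR adjusted p = 0.0340). The groups of Rpl27 were separated only narrowly, by sham replicate 1. Rpl15 (chromosome 14, 18267823 to 18270986), which is needed for processing the ribosomal RNA of the large subunit, had 305, 229 and 242 CPM in sham and 363, 349 and 364 in TAC. Its TAC libraries lay close together and clear of sham, with a change of 0.47 ± 0.14 (edgeR adjusted p = 0.0266).

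Rpl29 (chromosome 9, 106428889 to 106431568), which also binds heparin at the cell surface, and Rpl13 (chromosome 8, 123102350 to 123105244) changed by 0.48 ± 0.16 and 0.47 ± 0.15. Their edgeR adjusted p values, 0.0401 and 0.0434, were the closest to the threshold. Rpl29 had 158, 181 and 144 CPM in sham and 184, 221 and 270 in TAC, and Rpl13 had 202, 166 and 138 in sham and 206, 231 and 264 in TAC. For both genes the highest sham library came within a few CPM of TAC replicate 1.

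In the small subunit 2 genes rose. Rps9 (chromosome 7, 3703954 to 3706897), which lies where the messenger RNA enters, had 127, 138 and 101 CPM in sham and 162, 172 and 189 in TAC, a change of 0.52 ± 0.15 (edgeR adjusted p = 0.0197). Rps7 (chromosome 12, 28630847 to 28635953), also known to bind Mdm2, had 86.4, 72.5 and 81.7 CPM in sham and 104, 111 and 124 in TAC, a change of 0.49 ± 0.14 (edgeR adjusted p = 0.0226). Neither gene's groups overlapped. Over all tested members, the small subunit had a median of 0.29 over 31 genes with 2 called (6.45%). The large subunit had 0.34 over 44 genes with 7 called (15.9%), beside 8.28% of all tested genes called higher. Whether the subunits differ was not tested.

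Apart from Rpl39, each of these calls depended on which libraries were used. Rps9 was not called without sham replicate 3 (edgeR adjusted p = 0.119). Rps7 and Rpl15 were not called without sham replicate 2, sham replicate 3 or TAC replicate 2, with adjusted p up to 0.129 and 0.159, and Rpl27 not without sham replicate 2, sham replicate 3 or TAC replicate 3 (up to 0.153). Rpl13 and Rpl37a failed without sham replicate 2 or 3 or TAC replicate 2 or 3 (up to 0.209 and 0.168), Rpl41 without sham replicate 1, 2 or 3 or TAC replicate 3 (up to 0.0899), and Rpl29 in all such fits but that without TAC replicate 1 (up to 0.157). Just outside the threshold stood Rpl24, with an edgeR adjusted p of 0.0516, Rpl14, with 0.0564, and Rps27l, with 0.0569.

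At the other end of the range stood abundant genes whose groups lay over each other. Rpl4 had 728, 588 and 616 CPM in sham and 710, 661 and 643 in TAC, a log2 difference of 0.06 ± 0.14 (edgeR adjusted p = 0.802). Rpl21 had 197, 164 and 163 CPM in sham and 177, 165 and 189 in TAC, a difference of 0.02 ± 0.13 (edgeR adjusted p = 0.939). In both genes the highest library was sham replicate 1. Rpl10 and Rpl10a, the highest by RPKM, differed by 0.19 ± 0.14 and 0.33 ± 0.14 (edgeR adjusted p = 0.394 and 0.106); the libraries of Rpl10a did not overlap between groups on the RPKM scale, those of Rpl10 did.

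The stalk of the large subunit recruits the factors that drive translation. Of its acidic proteins, Rplp1 had 149, 126 and 103 CPM in sham and 145, 160 and 221 in TAC, a log2 fold change of 0.47 ± 0.17 (edgeR adjusted p = 0.0687). Rplp2 had 80.0, 72.5 and 59.0 CPM in sham and 81.2, 75.3 and 107 in TAC, a difference of 0.32 ± 0.17 (edgeR adjusted p = 0.203). For both, the groups overlapped and TAC replicate 3 was the highest library.

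Some ribosomal proteins have a near relative that can take their place, and the ratio of relative to parent was taken as a percent of RPKM within each library. Rps27l, a p53 target gene, stood at 6.48%, 9.27% and 8.95% of Rps27 in sham and at 10.9%, 11.2% and 10.99% in TAC. These groups did not overlap, with means of 8.23% ± 1.53 and 11.04% ± 0.130 (SD, n = 3 each). The two-sided exact permutation test gave p = 0.1, the smallest that 3 against 3 libraries allow, and 0.4 after adjustment over the 4 pairs. Rps27l itself had 31.7, 38.7 and 33.4 RPKM in sham and 42.7, 53.1 and 62.2 in TAC, while the difference of Rps27 was 0.16 ± 0.16 on the log2 scale (edgeR adjusted p = 0.506).

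The other pairs overlapped widely. Rpl22l1, which can replace Rpl22, stood at 242% ± 48.4 of Rpl22 in sham and 227% ± 62.4 in TAC (exact permutation p = 0.8, n = 3 each). Rpl7l1 stood at 4.97% ± 4.04 of Rpl7 in sham and 3.81% ± 0.944 in TAC (exact permutation p = 0.9, n = 3 each). Rpl36al, a retained copy of Rpl36a that the naming rule does not cover, stood at 186% ± 50.6 and 169% ± 5.84 of its parent (exact permutation p = 0.7, n = 3 each). Adjusted over the 4 pairs, these 3 values were 0.9.

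The libraries themselves differed within each group. Ribosomal protein genes took 1.13%, 0.997% and 0.870% of the counts on gene rows in sham replicates 1 to 3, and 1.10%, 1.21% and 1.35% in TAC, with means of 0.999% ± 0.130 and 1.22% ± 0.121 (SD, n = 3 each), a ratio of 1.22. Sham replicate 1 lay between TAC replicates 1 and 2, so the groups overlapped. Of the 77 tested genes, 64 were lowest in sham replicate 3 and 63 highest in TAC replicate 3. The median log2 difference of the 77 genes from their mean over the libraries was 0.04, -0.16 and -0.36 in sham and 0.03, 0.11 and 0.37 in TAC; between sham replicate 1 and TAC replicate 1 it was nearly the same.

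The count of calls moved with these libraries. It was 1 of 77 without sham replicate 3 (Rpl39), while 5.03% of all tested genes were called higher in that fit. It was 2 without sham replicate 2 (4.21% of all genes), 4 without TAC replicate 3 (7.08%), 5 without TAC replicate 2 (6.19%), 19 without sham replicate 1 (7.13%) and 19 without TAC replicate 1 (8.11%). With both libraries numbered 3 left out, an alternative added after seeing the data, 61 of 77 were above 0, the median was 0.11 and 1 gene was called, beside 6.00% of all genes called higher.

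**Figure D3:**
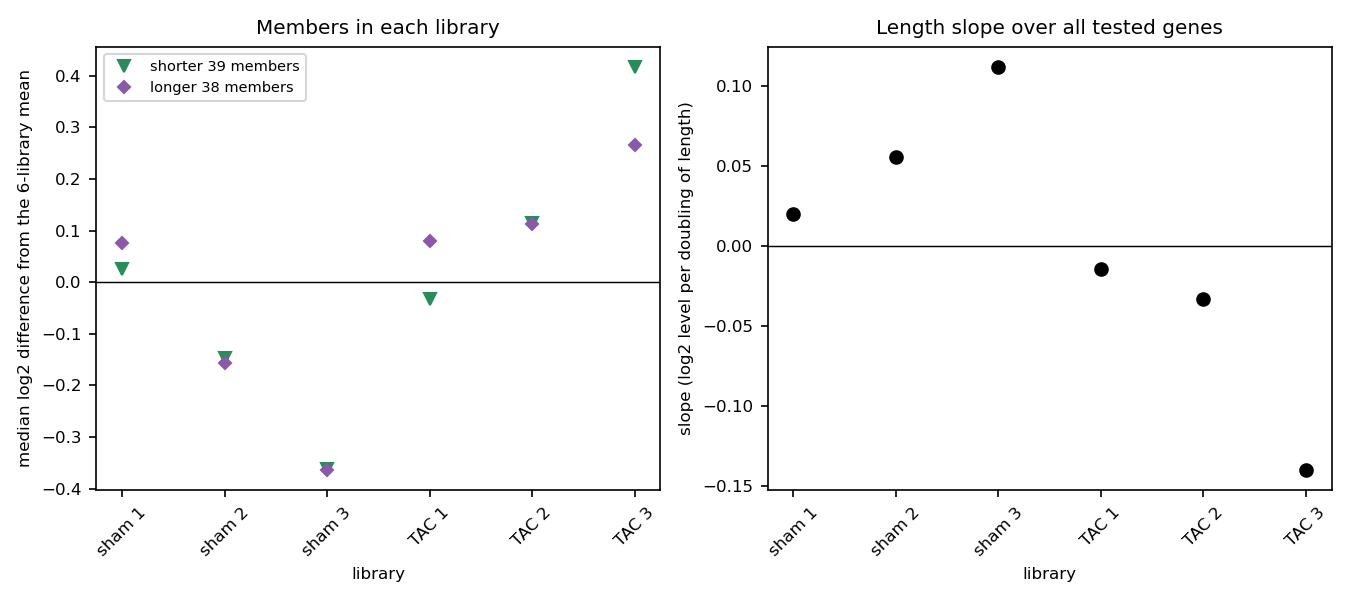
Left, the median log2 difference of the shorter 39 and the longer 38 tested ribosomal protein genes from their mean over the 6 libraries, by library; right, the slope of log2 level on log2 gene length over all 12612 tested genes in the same libraries. The longer genes span -0.36 in sham 3 to 0.27 in TAC 3, the shorter ones -0.36 to 0.42, and the slope runs the other way, from 0.11 in sham 3 to -0.14 in TAC 3.

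Ribosomal protein genes are short, and in these libraries change went with length over all genes. The median deposited length of the 77 genes was 678 bases, from 271 to 5136, beside 2586.5 for all tested genes. In the shortest of 10 equal classes of tested genes, from 206 to 824 bases, the median log2 fold change over all genes was 0.31 and 82.3% of genes were above 0; in the longest class the median was -0.20. Across genes, Spearman's rho between log2 length and log2 fold change was -0.28 over the 77 genes and -0.29 over all tested genes, which share libraries and depth and are no replicates.

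Beside genes of like length, the medians of the ribosomal protein genes lay closer to the rest than beside all genes. The shortest class held 52 of the 77, with a median of 0.34 beside 0.30 for its 1210 other genes, and 8 of the 9 called, while 10.2% of all genes of the class were called higher. The next class, up to 1271 bases, held 16 with a median of 0.32 beside 0.24, and none called, while 12.7% of all genes of the class were. The class from 1272 to 1711 bases held 4 with 0.13 beside 0.12. That from 1712 to 2129 bases held 3, Rpl15 among them, with 0.27 beside 0.01. The longest, Rpl7l1 and Rps15a, had 0.06 and 0.14, beside class medians of -0.04 and -0.14 for the other genes.

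With the length trend of each library removed before the fit, the median over the 77 genes was 0.08, beside 0.01 for all genes, 53 of 77 were above 0, and 1 was called, beside 7.86% of all genes called higher. The 1 was Rpl15, the longest of the 9 at 1841 bases, with 0.44 (edgeR adjusted p = 0.0295). Rpl39, at 394 bases, had 0.35 (edgeR adjusted p = 0.0580). Rps27, the third shortest row at 343 bases, had -0.21, and Rpl10 had -0.05. The slope of level on length differed between libraries of the same group, from 0.02 to 0.11 log2 units per doubling of length in sham and from -0.01 to -0.14 in TAC, and its order over the libraries was the reverse of that of the ribosomal protein share, except for sham replicate 1 and TAC replicate 1.

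**Figure D4:**
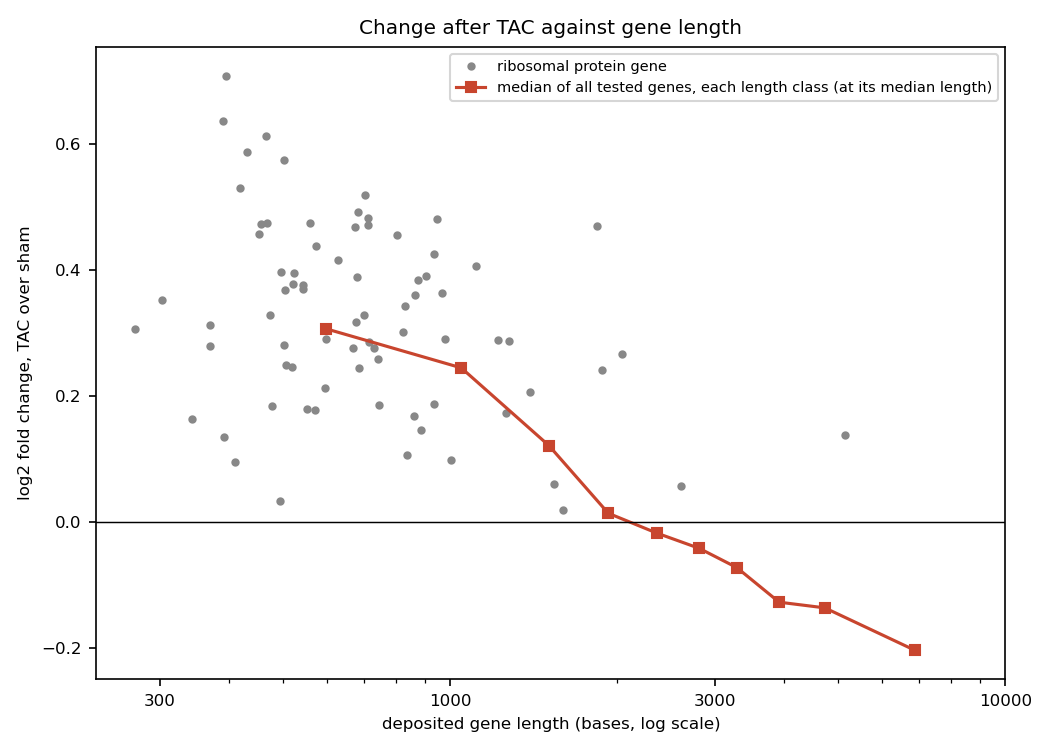
Log2 fold change of TAC over sham against deposited gene length (log axis) for the 77 tested ribosomal protein genes (grey) and the median of all tested genes in each of 10 equal classes by length (red, at the class's median length). The red line falls from 0.31 in the shortest class to -0.20 in the longest, and the grey points of short genes scatter around it.

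Ribosomal protein genes have many processed pseudogenes, copies of the spliced messenger RNA, whose sequence is close to the parent's. Among the 7327 rows with only a numbered name, 3937 matched a RefSeq gene by number, and 177 of these now carry the name of a pseudogene of 51 of the 78 genes. This search was made after seeing the files. The copies held more counts than the genes: 181%, 176% and 179% of the genes' counts in sham and 184%, 180% and 171% in TAC. No source used here says how reads with several matches were placed, and the counting is not stated to use strand, so counts of a parent and its copies cannot be told apart. Some copies held identical counts in every library. Rps12-ps12 and Rps12-ps16 both had 81, 61 and 66 counts in sham and 144, 179 and 167 in TAC. Sums over copies may thus hold the same reads repeatedly, and whether reads were counted on several rows was not tested. Reads in the gene's own direction made up a median of 41.8% of the counts of a tested ribosomal protein gene and 47.0% over all tested genes.

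For 35 of the 51 parents the copies together held more counts than the parent, with a median of 183%. The highest share was 866% for Rps12 with 15 copies, followed by 794% for Rpl31 with 12; Rpl10, the highest gene, stood at 641% with 5. Of the 177 copies 164 were tested, 159 were above 0, and 20 were called higher and 0 lower by edgeR. Of all tested genes, 50.8% were above 0, 8.28% were called higher and 10.4% lower. In the shortest length class these shares were 82.3%, 10.2% and 1.98%. The copies' median log2 fold change was 0.34 at a median length of 569.5 bases, and copies with identical counts are not separate results. Genes and copies together took 3.17%, 2.75% and 2.43% of the counts on gene rows in sham and 3.13%, 3.40% and 3.65% in TAC. As for the genes alone, sham replicate 1 reached into the TAC range.

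**Figure D5:**
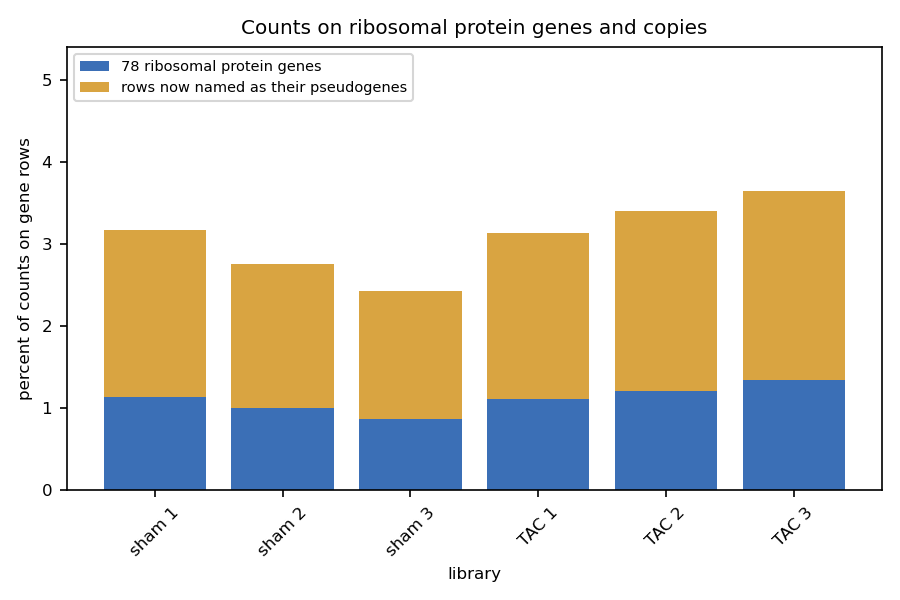
Percent of the counts on gene rows that fell on the 78 ribosomal protein genes (blue) and on the 177 rows now named as their pseudogenes (yellow) in each library. The blue part runs from 0.870% in sham 3 to 1.35% in TAC 3, and the yellow part is the larger in every library, lowest at 1.56% in sham 3. The yellow part may hold the same reads repeatedly.

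With each parent's copies added to it, the median was 0.35 and 12 of 77 genes were called, the 9 above with Rpl27a, Rpl36a and Rps26. That was a separate fit with its own adjustment, and its share of all genes called higher is not given here. In the main fit, the 26 tested genes with no such copy had a median of 0.32 and 4 calls (Rpl37a, Rpl39, Rpl41 and Rps9), beside 0.31 and 5 calls over the 51 with copies. In that main fit 8.28% of all tested genes were called higher.

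Called genes in lists around the ribosome did not share 1 direction. Beside each list below, 8.28% of all tested genes were called higher and 10.4% lower by edgeR in the main fit. In the fit scaled to matched reads, more of all genes were called higher and fewer lower. Its counts below stand beside the share given above for that fit. Of 4 cytosolic ribosomal proteins outside the naming rule, Gnb2l1 (now Rack1), a scaffold on the small subunit, rose by 0.50 ± 0.16 (edgeR adjusted p = 0.0426; called in 1 of 6 fits that left out a library, that without sham replicate 1), and the 4 had a median of 0.35. Of 58 tested mitochondrial ribosomal proteins, 47 were above 0, with a median of 0.37 (0.23 with the length trend removed). By edgeR 1 of them rose, Mrpl24, with 11.1 ± 4.42 CPM in sham and 20.4 ± 2.06 in TAC (adjusted p = 0.0303), and 0 fell; at an unadjusted p under 0.05 there were 15 and 0, by DESeq2 0 and 0, by limma voom 1 and 0, and scaled to matched reads 24 and 0. Mrpl24 was not called without sham replicate 1 or 2 or TAC replicate 2 or 3 (adjusted p up to 0.134).

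Among 11 tested elongation factors the median was 0.03. Eef1g, a subunit of the complex that recharges the elongation factor carrying aminoacyl-tRNA, rose from 129 ± 26.0 to 201 ± 23.3 CPM (edgeR adjusted p = 0.00972), and Eif5a, which helps the ribosome past difficult peptide bonds, fell by 0.41 on the log2 scale (edgeR adjusted p = 0.0328). Eef1g was not called without sham replicate 2 or 3 (up to 0.0687), and Eif5a not without sham replicate 2 or 3 or TAC replicate 1 or 2 (up to 0.142); scaled to matched reads, Eif5a had 0.01. Scaled to matched reads, 3 elongation factors were called higher and 0 lower. Among 27 initiation factors 3 rose and 3 fell, with a median of 0.09, and scaled to matched reads 12 were called higher and 0 lower, with a median of 0.52. The poly(A)-binding proteins Pabpc1 (0.58 ± 0.14) and Pabpc4 (0.74 ± 0.18) rose, with edgeR adjusted p of 0.00830 and 0.00817, and each failed without sham replicate 2 (0.0614 and 0.0608). The scaffold Eif4g3 fell by 0.62 on the log2 scale (edgeR adjusted p = 0.00365) and Eif1, which guards start codon choice, by 0.56 (0.0103); Eif1 failed without sham replicate 2 or TAC replicate 2 (up to 0.0741).

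Of 77 tested genes for ribosome assembly and processing of ribosomal RNA, 0 rose and 5 fell by edgeR, with a median of -0.03. Over all tested genes, 8.28% rose and 10.4% fell, with a median of 0.01. At an unadjusted p under 0.05, 5 were higher and 9 lower; DESeq2 called 0 and 3, limma voom 0 and 6. Scaled to matched reads, the count turned to 10 higher and 2 lower, with a median of 0.40 beside 0.44 for all genes. Nol5 (now Nop58), a core protein of the box C/D particles that methylate ribosomal RNA, fell from 392, 346 and 251 CPM in sham to 126, 104 and 103 in TAC, a log2 fold change of -1.57 ± 0.16 (edgeR adjusted p = 6.18e-06). Nol10 fell from 51.8 ± 6.19 to 23.7 ± 1.75 CPM (edgeR adjusted p = 0.000235). Both were called in every fit that left out a library. Ftsj3, a methyltransferase of ribosome assembly, fell by 0.97 (0.0167; up to 0.0987 without sham replicate 3 or TAC replicate 2), and the helicase Ddx21 by 0.45 (0.0404), called in 1 of 6 such fits, that without TAC replicate 3.

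The 8 tested genes of RNA polymerase I and its factors had a median of 0.11 with 0 called in either direction by edgeR, DESeq2 or limma voom, and 0 at an unadjusted p under 0.05. Scaled to matched reads, 0 were called and the median was 0.53. The most abundant were Ubtf, which organises ribosomal DNA, at 37.4 ± 3.17 CPM in sham and 41.5 ± 5.21 in TAC, and Rrn3, an initiation factor of that polymerase, at 34.4 ± 5.17 and 36.1 ± 1.81 (SD, n = 3 each).

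Of 17 genes of growth signalling to the ribosome 1 rose and 2 fell, with a median of 0.10. Scaled to matched reads, 7 were called higher and 0 lower, with a median of 0.53. Myc, a transcription factor that drives ribosome production, fell from 735, 563 and 684 CPM in sham to 505, 312 and 303 in TAC, -0.82 ± 0.18 (edgeR adjusted p = 0.00504). Mnt, which competes with Myc for the shared partner Max, rose from 14.7 ± 2.49 to 29.4 ± 7.33 CPM (edgeR adjusted p = 0.00734). Neither gene's groups overlapped, and both were called in every fit that left out a library. Frap1 (now Mtor), the kinase itself, fell by 0.52 on the log2 scale (edgeR adjusted p = 0.0444), but was called in 1 of 6 such fits, that without TAC replicate 1. Of 8 other genes with TOP messenger RNAs 7 were above 0, with a median of 0.15 (4 called higher and 0 lower scaled to matched reads): the filament protein Vim rose by 0.43 ± 0.14 (edgeR adjusted p = 0.0455) and Gas5, a noncoding host of small nucleolar RNAs, fell by 0.45 (0.0243). Vim was called in 1 of 6 such fits, that without TAC replicate 3, and Gas5 in 2, those without sham replicate 1 or TAC replicate 3. With the length trend removed, Gnb2l1 had 0.36, Mrpl24 0.70 (0.87 before), Ddx21 -0.30 and Frap1 -0.31, the same directions, and none was called (edgeR adjusted p = 0.112, 0.0859, 0.181 and 0.182). In that fit 1 of 58 mitochondrial ribosomal proteins was called higher, Mrpl17, with 0.55 (edgeR adjusted p = 0.0197). Mrpl17 had 0.37 in the main fit (edgeR adjusted p = 0.123). Scaled to matched reads, the falls of Eif1, Eif4g3, Ftsj3, Ddx21, Frap1, Myc and Gas5 were not called, with edgeR adjusted p from 0.113 for Myc to 0.959 for Gas5.

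Several measures of the libraries moved with the groups. The counts on gene rows summed to between 1909337 and 2056097 in sham and between 3351479 and 4207312 in TAC, and the share of matched reads on gene rows was 34.1%, 30.7% and 25.4% in sham and 38.95%, 43.2% and 38.7% in TAC. All 10 fibroblast markers were detected in each library; Postn, Col1a1, Col1a2 and Col3a1 rose, Tcf21, Pdgfra, Ddr2 and Dcn fell, and Thy1 and Lum were not called. Their summed level, carried by the collagens, Postn and Dcn, was 22888 to 31230 CPM in sham and 40258 to 51450 in TAC. Summed over 18 genes of cycling cells it was 64.6 to 143 in sham and 516 to 653 in TAC. Over 14 macrophage and leukocyte markers it was 22.6 to 72.0 CPM in sham, with Ptprc at 0 in all 3 libraries, and 85.8, 86.1 and 257 in TAC, the last in TAC replicate 3, where the ribosomal protein share was also highest. Over 11 pericyte and smooth muscle markers it was 2953 to 4959 in sham and 1372 to 2664 in TAC, over 11 endothelial markers 216 to 287 and 167 to 190, with Cldn5 at 0 in 3 of the 6 libraries, and over 12 cardiomyocyte markers 225 to 557 and 313 to 648. Calls within the last lists went both ways. Of 11 tested pericyte and smooth muscle markers, Tagln was called higher and Kcnj8, Abcc9 and Myh11 lower. Of 6 tested endothelial markers, Erg was called higher and Tek and Esam1 lower. Of 12 cardiomyocyte markers, Nppa was called higher and Pln lower. The part of all these measures in the shift of the ribosomal protein genes was not tested.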

How the data were processed

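Each library had a deposited report with 26459 gene rows. Per the file headers, the authors made its read counts in NextGENe 2.3.3. Build mm10 and Partek 6.6 appear, without a role, in the submitters' processing notes. The deposited RPKM values follow from these counts, the row's length and the library's sum. The file headers give 6027855 to 9736461 matched reads per library. The TruSeq v2 kit named in the labels does not mark strand.

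Rows were summed to 26458 symbols and analysed in R 4.3.3 with edgeR 4.0.16: filterByExpr left 12612 genes, TMM scaled the libraries, and the quasi-likelihood test was two-sided with Benjamini-Hochberg adjustment, and genes at an adjusted p under 0.05 were called. The F statistic gave the standard errors. Intervals are not given, and p-values cover the spread of 3 libraries per group. The length trend was removed as a loess curve per library (span 0.5) on log2 length. The fit was tested on simulated data.

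Named genes were every called gene, the 6 highest by RPKM, those under the filter, relatives with an L suffix and their parents, the stalk proteins, and per list up to 4 called genes or the 2 most abundant. Genes near the threshold, Rps15a, Rps12, Rpl31 and Rpl21 were named after their values were seen. The naming rule and the lists were proposed with earlier results of these data known, although the rule reads symbols only. Alternatives were other scalings and filters, DESeq2 1.42.0, limma 3.58.1 (voom, and limma on log2 RPKM with pseudocounts of 1 and 0.1), a replicate block, thinning and leaving out libraries. Scaling to matched reads, omission of both libraries numbered 3 and addition of copies were chosen after seeing the data. Plots used matplotlib 3.10.9.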

Additional observations from a re-analysis of the deposited data

Results flagged for a closer look

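The file headers also count matched reads, which lie outside the main measurement, scaled by counts on gene rows. Reads on gene rows made up 40.3% of matched reads in TAC and 30.1% in sham (means, n = 3 each), and every TAC library lay above every sham library. The share is thus higher than in the controls. Counted against matched reads, ribosomal protein genes took 0.385%, 0.306% and 0.221% in sham and 0.430%, 0.524% and 0.521% in TAC, and these groups did not overlap.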

How the results depend on the processing

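The number of ribosomal protein genes called higher, 9 of 77, beside 8.28% of all genes, was 18 with upper quartile scaling (9.83% of all genes), 28 with no filter on low counts (7.58%), 17 with at least 10 counts in every library (8.99%), 1 with the length trend removed (7.86%), 1 without both libraries numbered 3 (6.00%), and 68 with scaling to matched reads (29.5%). It ranged from 1 to 19 when each library was left out in turn (4.21% to 8.11%). The median log2 fold change, 0.31, was 0.076 with the length trend removed and 0.72 with matched reads, which also moved the median of all genes to 0.44 and the calls over all genes from 1044 higher and 1309 lower to 3716 and 403. Without both libraries numbered 3 the median of the ribosomal protein genes was 0.11. In the remaining alternatives the median lay within the spread of the libraries, from 0.20 to 0.41 when each library was left out. The number called lower was 0 in all alternatives. The replicate numbers did not pair the libraries: deviations of same-numbered libraries correlated at 0.0824, 0.0251 and -0.0862. With the replicate block 9 genes were called and the median was 0.31.

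Of 798 values of 38 of the named genes over the alternatives, 627 kept their direction and side of the threshold, 132 lost the call, 24 gained it and 15 changed sign. Rpl21, outside these 38, went from 0.02 to -0.05 with the length trend removed. In that fit 53 of the 77 ribosomal protein genes were above 0. With the length trend removed, Rpl10 had -0.0458, Rpl22l1 -0.15, Rpl4 -0.0241 and Rps27 -0.21. Rpl7l1, with few counts, had -0.0205 after thinning, from -0.32 to 0.79 when each library was left out, and -0.40 without both libraries numbered 3, where Rpl22l1 had -0.25 and Rps27 -0.0666. Leaving out each library, Rpl4 ranged from -0.0108 to 0.15 and Rpl22l1 from -0.13 to 0.36. Eif5a had 0.0105 with matched reads. Beyond the length trend and the matched-read scaling, whose construction sets these shifts, the cause was not tested. Depth limits chiefly Rpl7l1 and Rpl3l.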
